A study of Mus musculus with 16 samples.

Results

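The genes described here encode the proteins of the mitochondrial ribosome. They were taken from a table of RNA-seq values of mouse oocytes by symbol alone, as every gene whose name is Mrpl or Mrps followed by a number and at most 1 letter. This gave 76 of the 25965 genes in the table, of which 49 encode proteins of the large subunit and 26 of the small subunit. Mrps36 carries such a name but is counted in neither subunit here, since its product is known as a part of the 2-oxoglutarate dehydrogenase complex. The rule uses no measured value, although the gene family was picked with earlier results of these data known.

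The oocytes came from C57BL/6 mice (C57BL/6Babr in the study's methods) without a transgene or a treatment and were collected by diameter as they grew. RNA was measured in pools of oocytes whose diameters were 10–30 μm, 40–45 μm (from this size on, methylation was measured too), 50–55 μm or 60–65 μm, each with 2 libraries named A and B, and in 1 column of values for fully grown germinal vesicle (GV) oocytes. DNA methylation was measured by reduced representation bisulphite sequencing (RRBS), which reads CpG-rich fragments, in 2 libraries of each growing class but the smallest, and by post-bisulphite adaptor tagging (PBAT), which reads the whole genome, in 1 library of the 60–65 μm class. The 16 samples were thus 9 of RNA, 6 of RRBS and 1 of PBAT. The labels give no ages, and the age ranges that the study lists per class differ between its methods and its sample list, so none are printed. Larger oocytes came from older mice, and size and age cannot be told apart. The labels do not say that libraries A and B came from separate mice. Each p-value below rests on the spread between libraries A and B within classes, shared over the growing classes and moderated over genes. It cannot be taken as resting on a spread between mice. RPKM, the unit of the RNA table, is the number of reads scaled to the exon length of the gene and to the total of the library. It gives a share of the counted RNA and not an amount per oocyte, so a lower level of these RNAs in every oocyte, a rise of other RNAs and a smaller share of cells that make them cannot be told apart.

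The mitochondrial ribosome translates the few messenger RNAs encoded by mitochondrial DNA, which in mammals all specify subunits of oxidative phosphorylation. Its ribosomal RNAs are transcribed inside the organelle, whereas all of its proteins are encoded in the nucleus, made on cytosolic ribosomes and imported. Some of these proteins descend from those of the bacterial ribosome and others exist only in mitochondria, where they took the place of ribosomal RNA that was lost. Oocytes are rich in mitochondria, and the organelles multiply while the oocyte grows.

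The genes were spread over 17 chromosomes, with at most 10 on any one, and their median exon length in the GENCODE annotation was 2213.5 bases. RefSeq promoter sequences of GRCm38.p6, each running from 250 bases before to 50 bases after the start, were found for 67 of the 76 genes. Mrpl4, Mrpl13, Mrpl15, Mrpl19, Mrpl38, Mrpl54, Mrps28, Mrps34 and Mrps35 had no entry. The stretches printed here, 120 bases each and read 5′ to 3′ on the strand of the gene, are those of 3 genes that fell over oocyte growth (Mrpl23, Mrpl52, Mrps24), of 2 that rose (Mrpl45, Mrps25) and of Mrps22, which was abundant and did not pass the test. Capitals mark exact matches, on either strand, to 1 of 6 short motifs that were searched: TGCGCA, the core bound by NRF1, AAGATGG, bound by YY1, CCGGAAG, bound by ETS factors such as GABPA, GGGCGG, bound by SP1, CCAAT, and TATAAA, the TATA box.
Mrpl23, chr7:142532892-142533011, plus strand: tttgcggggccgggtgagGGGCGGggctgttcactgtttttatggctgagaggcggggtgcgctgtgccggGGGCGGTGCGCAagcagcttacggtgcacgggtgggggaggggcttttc
Mrpl52, chr14:54426789-54426908, plus strand: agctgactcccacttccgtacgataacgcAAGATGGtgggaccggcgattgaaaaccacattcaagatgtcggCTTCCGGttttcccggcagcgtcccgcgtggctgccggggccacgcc
Mrps24, chr11:5707702-5707821, minus strand: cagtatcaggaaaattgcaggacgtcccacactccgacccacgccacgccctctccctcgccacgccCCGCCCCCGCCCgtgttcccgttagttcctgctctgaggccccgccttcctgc
Mrpl45, chr11:97315596-97315715, plus strand: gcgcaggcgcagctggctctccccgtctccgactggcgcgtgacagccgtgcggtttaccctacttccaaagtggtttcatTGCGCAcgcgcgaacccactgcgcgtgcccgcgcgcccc
Mrps25, chr6:92184034-92184153, minus strand: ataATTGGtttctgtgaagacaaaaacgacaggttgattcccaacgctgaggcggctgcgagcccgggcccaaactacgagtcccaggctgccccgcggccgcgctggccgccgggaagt
Mrps22, chr9:98601680-98601799, minus strand: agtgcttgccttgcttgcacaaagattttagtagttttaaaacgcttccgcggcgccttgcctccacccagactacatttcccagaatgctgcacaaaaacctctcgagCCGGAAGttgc

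Over the whole 300-base window, the NRF1 core was found in 19 of the 67 promoters (28.4%), beside 16.3% of the 7337 matched promoters of tested genes and 7.76% of all 32851 promoters in the table. The ETS motif was in 23 (34.3%), beside 20.7% of tested genes and 8.86% of all promoters. The YY1 motif was in 13 (19.4%), beside 7.71% and 6.34%. The SP1 motif stood the other way, in 33 (49.3%) beside 66.2% of tested genes, although it was still more frequent than in all promoters (35.7%). CCAAT was in 27 (40.3%), beside 40.6% of tested genes and 37.4% of all promoters, and TATAAA in 4 (5.97%), beside 6.47% and 13.6%. No motif contains another, and 1 promoter may hold several. A match states only that these letters are in the window. The promoters held a median of 58.0% G and C and 21 CpGs, beside 61.3% and 22 in those of tested genes.

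In 100 to 132 genes with a single exon and low values per library, 95.7 to 99.0% of the lowest values lay within 0.05 reads of a whole multiple of 1 step, from which the number of reads, or parts of reads, behind a value was worked out. With exon lengths from the GENCODE annotation, between 142 and 21200 reads were estimated for each mitochondrial ribosomal protein gene in each growing library. These numbers are rough, since the gene models behind the deposited values may differ. Mrpl32, with the 21200 reads, had 4982 exon bases in that annotation beside a whole span of 2737 bases in the RNA table. The 12 oocyte markers set for the check (such as Zp3, Gdf9 and Figla) were all expressed, with summed levels of 2992 to 4149 RPKM over the 9 columns. Of 12 granulosa cell markers 3 were high enough to be tested. Inha, Cyp19a1 and Nr5a2 were those 3, and all of them were higher at 60–65 than at 10–30 μm. The granulosa list as a whole summed to 2.14 and 2.56 RPKM at 10–30 μm, 7.95 and 7.40 RPKM at 60–65 μm and 9.88 RPKM in GV. Nr5a2 alone held 1.29 and 1.73, 4.8 and 4.6, and 5.56 RPKM of these sums. Of the markers too low to test, Fshr, Amhr2, Inhba, Kitl, Hsd17b1, Cyp11a1 and Amh lay higher in both 60–65 μm than in both 10–30 μm libraries. Foxl2, at no more than 0.064 RPKM in any column, and Wt1 overlapped. Of 11 stroma, theca and blood markers 3 were tested, with Pecam1 higher and Col1a1 and Col1a2 lower at 60–65 μm, and the list summed to 1.96 to 6.01 RPKM. The part of other cells in the results that follow was not tested.

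Mitochondrial ribosomal protein RNAs were present at moderate levels with a wide spread between genes. RPKM is scaled to exon length, so levels can be set against each other. Mean RPKM over the 8 libraries of growing oocytes ran from 0.25 to 23.1 with a median of 4.56, with 12 genes above 10 RPKM and 4 under 1 RPKM. The order of the genes by level was much the same in the smallest and the largest growing oocytes, with a Spearman correlation of 0.93 over the 76 genes between the class means at 10–30 and 60–65 μm.

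The most abundant was Mrpl32, a large-subunit protein that is cut by the m-AAA protease on import, with 32.1 and 26.2 RPKM at 10–30 μm, 24.9 and 22.1 RPKM at 40–45 μm, 21.7 and 19.5 RPKM at 50–55 μm, 18.4 and 19.6 RPKM at 60–65 μm and 19.5 RPKM in GV. It was followed by Mrps22, a protein of the small subunit found only in mitochondria, with 23.5 and 20.1, 24.1 and 21.3, 24.6 and 21.5, and 24.0 and 23.9 RPKM in the same order of classes and 25.6 RPKM in GV. Within each library, Mrpl32 lay above Mrps22 at 10–30 μm and, narrowly, at 40–45 μm. Mrps22 lay above Mrpl32 in each library at 50–55 and 60–65 μm and in GV. Next came Mrpl9 with a mean of 18.9 RPKM, Mrpl18 with 16.9 RPKM and Mrpl34 with 16.5 RPKM, all 3 large-subunit proteins with bacterial counterparts. Mrpl18 stood at 19.8 and 16.2 RPKM at 10–30 μm and 17.2 and 16.9 RPKM at 60–65 μm, and Mrpl34 at 16.9 and 17.3 RPKM and then 17.4 and 17.7 RPKM. Mrpl18 and Mrpl34 overlapped in the smallest oocytes and lay side by side in the largest.

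At the other end, Mrps10, a small-subunit protein with a bacterial counterpart, was the only one of the 76 that did not reach the level needed for testing (0.5 RPKM in 2 of the 8 libraries). Its values were 0.348 and 0.417 RPKM at 10–30 μm, 0.215 and 0.260 RPKM at 40–45 μm, 0.151 and 0.191 RPKM at 50–55 μm, 0.225 and 0.193 RPKM at 60–65 μm and 0.174 RPKM in GV. Both 10–30 μm libraries lay above all others. Mrpl19, Mrpl13 and Mrpl33, large-subunit proteins with bacterial counterparts, had means of 0.396, 0.551 and 0.584 RPKM, and Mrpl50, found only in mitochondria, 1.38 RPKM.

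From 10–30 to 60–65 μm the RNAs of the mitochondrial ribosome fell more often than they rose, by modest amounts. Of the 75 genes tested, 38 were lower and 4 were higher at 60–65 μm, and 33 did not pass the test (limma, Benjamini-Hochberg adjusted p under 0.05 over all 10518 genes tested). Over all genes tested, 31.8% were lower and 31.5% were higher. The share of lower genes among the 75 was above that background and the share of higher genes was far under it. Their median log2 change was −0.36, a fold of 0.777, against a median of 0.00 over all genes tested, and single genes ran from −1.46 to 0.58. In the values as deposited, both 60–65 μm libraries lay under both 10–30 μm libraries in 55 of the 75 genes and above both in 8, with overlap in 12. Over all genes tested, 41.9% were lower and 40.2% higher without overlap. Among the 38 lower genes the median fold was 0.652, and 5 had a log2 change of −1 or beyond.

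The size of this result depended on single libraries. Without the 60–65 μm library A, 23 genes were lower and 1 was higher, while the genes tested as a whole went from 3345 lower and 3317 higher to 2440 and 2516. Without the 10–30 μm library A 26 were lower, beside 2853 of all genes tested, and without the 10–30 μm library B 48 were lower, beside 3349. The median log2 change was −0.24 without the 10–30 μm library A and −0.51 without the 10–30 μm library B, and these were the extremes when each library was left out in turn.

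**Figure D1:**
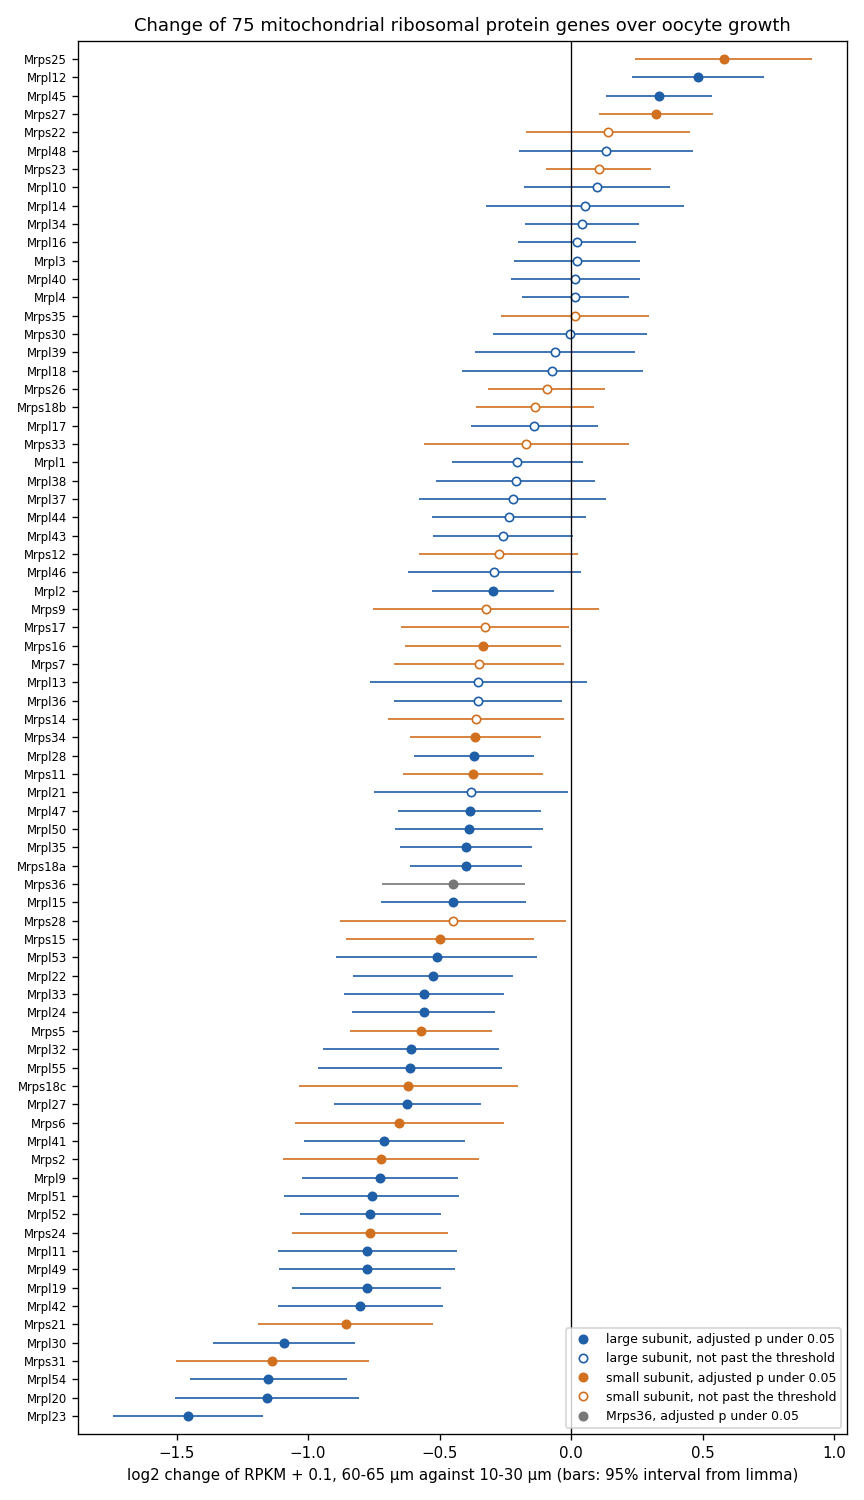
The log2 change from 10–30 to 60–65 μm oocytes (horizontal axis, bars for the 95% interval from limma) for each of the 75 genes tested, in order of change, with blue for the large and orange for the small subunit and filled points for the 38 lower and 4 higher genes. Most points lie left of 0, from Mrps25 at 0.58 at the top to Mrpl23 at −1.46 at the bottom.

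Large-subunit genes held 26 lower and 2 higher of 49, with a median log2 change of −0.38. Small-subunit genes held 11 lower and 2 higher of 25, with a median of −0.35. Genes with a bacterial counterpart held 25 lower and 1 higher of 44 (median −0.38), and those found only in mitochondria 12 lower and 3 higher of 30 (median −0.23). These splits are described and were not tested against each other.

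Among the large-subunit proteins that descend from the bacterial ribosome, Mrpl23, which lies at the exit of the peptide tunnel, changed the most. Its values were 4.33 and 3.70 RPKM at 10–30 μm, 2.25 and 2.62 RPKM at 40–45 μm, 1.71 and 1.70 RPKM at 50–55 μm, 1.36 and 1.42 RPKM at 60–65 μm and 1.16 RPKM in GV. No library of one class reached into the range of the class before it, and GV was the lowest of all. The log2 change from 10–30 to 60–65 μm was −1.46 ± 0.12 (SE), a fold of 0.365 with an adjusted p of 3e-05. Mrpl20 went from 4.61 and 3.76 RPKM at 10–30 μm through 2.94 and 2.86 RPKM and then 2.07 and 2.13 RPKM to 1.61 and 2.03 RPKM at 60–65 μm, with 1.30 RPKM in GV. Each class again lay wholly under the one before. Its log2 change was −1.16 ± 0.15 with an adjusted p of 0.000281.

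Mrpl30, also with a bacterial counterpart, had 7.74 and 7.14 RPKM at 10–30 μm, 5.16 and 5.43 RPKM at 40–45 μm, 4.08 and 3.71 RPKM at 50–55 μm, 3.18 and 3.69 RPKM at 60–65 μm and 2.98 RPKM in GV. The first 3 classes did not overlap, and the lower library at 50–55 μm lay just above the higher one at 60–65 μm. The log2 change over the whole of growth was −1.09 ± 0.12 with an adjusted p of 9.6e-05. The abundant Mrpl9 stayed at 24.5 and 20.5 RPKM at 10–30 μm and 22.5 and 21.3 RPKM at 40–45 μm before it went to 18.3 and 16.9 RPKM, 13.0 and 14.0 RPKM and, in GV, 10.2 RPKM. Its log2 change was −0.73 ± 0.13 (adjusted p 0.00142), and unlike the genes above its first classes overlapped. Mrpl32, whose values are given above, fell by 0.61 ± 0.15 on the log2 scale (adjusted p 0.00647), a call that was lost without the 60–65 μm library A, when the change was −0.55.

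Of the large-subunit proteins found only in mitochondria, Mrpl54 had 12.8 and 10.99 RPKM at 10–30 μm, 8.42 and 8.64 RPKM at 40–45 μm, 5.65 and 6.00 RPKM at 50–55 μm, 4.88 and 5.74 RPKM at 60–65 μm and 3.81 RPKM in GV. The libraries at 50–55 and 60–65 μm overlapped and all other neighbouring classes were apart. Its log2 change was −1.15 ± 0.13, a fold of 0.45 with an adjusted p of 0.000124. Mrpl52 had 10.5 and 9.22 RPKM, then 6.37 and 7.10 RPKM, then 5.43 and 5.01 RPKM, and 6.03 and 5.46 RPKM at 60–65 μm, with 5.70 RPKM in GV. It was lowest at 50–55 μm and did not go down further. The log2 change over growth was −0.76 ± 0.12 with an adjusted p of 0.000637.

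In the small subunit the largest fall was that of Mrps31, a protein found only in mitochondria. It had 14.3 and 11.1 RPKM at 10–30 μm, 9.39 and 8.26 RPKM at 40–45 μm, 7.22 and 6.69 RPKM at 50–55 μm, 5.34 and 5.99 RPKM at 60–65 μm and 5.63 RPKM in GV. Every growing class lay under the one before it, and GV lay within the range of the last. The log2 change was −1.14 ± 0.16, a fold of 0.455 with an adjusted p of 0.000401. Mrps21, the counterpart of a bacterial protein, went from 11.4 and 9.41 RPKM at 10–30 μm through 7.68 and 8.56 RPKM and 5.84 and 6.52 RPKM to 5.23 and 6.16 RPKM, with 5.28 RPKM in GV. The last 2 growing classes overlapped. It fell by 0.86 ± 0.14 on the log2 scale, with an adjusted p of 0.00108.

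Mrps24, the homologue of a bacterial protein at the entry of the messenger RNA channel, had 12.9 and 10.6 RPKM at 10–30 μm, 9.00 and 8.49 RPKM at 40–45 μm, 6.45 and 6.03 RPKM at 50–55 μm, 6.85 and 6.81 RPKM at 60–65 μm and 5.22 RPKM in GV. Its lowest growing class was 50–55 μm. The log2 change over growth was −0.76 ± 0.13, a fold of 0.589 with an adjusted p of 0.0011. In the annotation 15.4% of its exon bases are shared with Urgcp on the same strand, which also fell, by 0.48 ± 0.13 (adjusted p 0.0133), and reads in the shared bases cannot be told apart. Mrps12, the protein of the decoding centre, had 4.53 and 4.37 RPKM at 10–30 μm and 3.44 and 3.88 RPKM at 60–65 μm. These libraries did not overlap, but the log2 change of −0.28 ± 0.13 did not pass the test (adjusted p 0.0993).

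**Figure D2:**
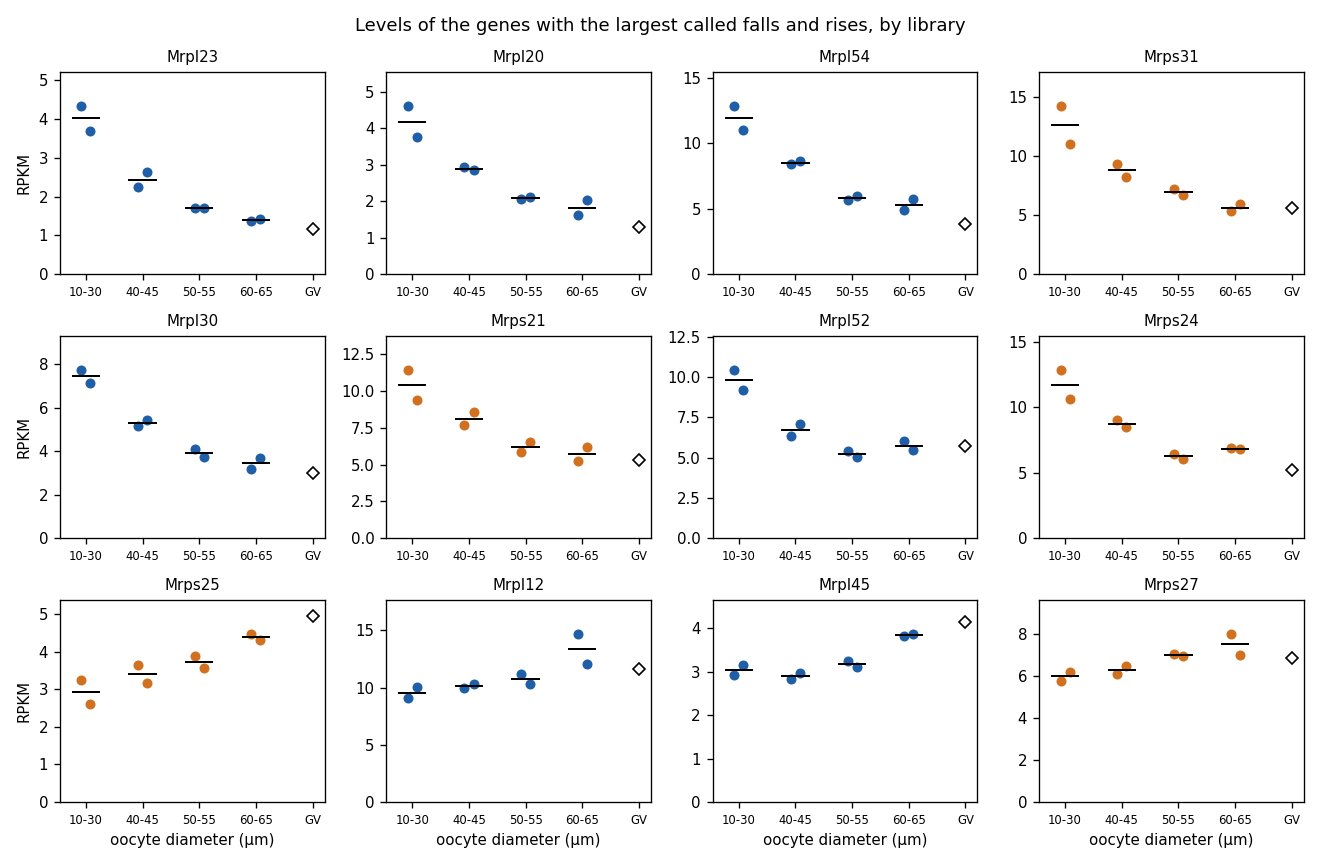
RPKM in each library (points, axis from 0) against oocyte diameter for 12 genes, 8 that fell and 4 that rose, with a line at the mean of each class, an open diamond for GV, blue for the large and orange for the small subunit. Mrpl23 steps down at each class from 4.33 and 3.70 RPKM to 1.36 and 1.42 RPKM, and Mrps25 ends at 4.49 and 4.33 RPKM.

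The 4 genes that rose were Mrps25, Mrpl12, Mrpl45 and Mrps27. Mrpl12 is the stalk protein that brings translation factors to the ribosome, Mrpl45 holds the ribosome at the inner membrane, Mrps27 is a pentatricopeptide-repeat protein of the small subunit, and Mrps25 is a small-subunit protein without a bacterial counterpart. Mrpl12 had 9.08 and 10.0 RPKM at 10–30 μm, 9.98 and 10.3 RPKM at 40–45 μm, 11.1 and 10.3 RPKM at 50–55 μm, 14.7 and 12.1 RPKM at 60–65 μm and 11.6 RPKM in GV. Each of its first 3 classes overlapped its neighbour, and GV was back under both 60–65 μm libraries. The log2 change from 10–30 to 60–65 μm was 0.48 ± 0.11, a 1.40-fold level with an adjusted p of 0.00502.

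Mrpl45 had 2.93 and 3.14 RPKM, 2.83 and 2.98 RPKM, 3.25 and 3.11 RPKM, and then 3.82 and 3.88 RPKM at 60–65 μm, with 4.14 RPKM in GV. The largest growing oocytes and GV lay above all smaller ones. The log2 change was 0.33 ± 0.09 with an adjusted p of 0.01. Mrps27 had 5.79 and 6.19 RPKM, 6.11 and 6.49 RPKM, 7.07 and 6.99 RPKM, and 8.04 and 7.02 RPKM, with 6.85 RPKM in GV. Its 50–55 and 60–65 μm libraries overlapped, and GV lay under both. The log2 change over growth was 0.32 ± 0.09 (adjusted p 0.0161), and it did not pass with only the 10–30 and 60–65 μm classes in the fit. In the annotation 24.2% of the exon bases of Mrps27 lie opposite those of 6430562O15Rik, whose level is not known here.

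Mrps25 had 3.26 and 2.61 RPKM, 3.64 and 3.17 RPKM, 3.89 and 3.58 RPKM, 4.49 and 4.33 RPKM and 4.95 RPKM in GV. Only its largest growing class lay apart from all others, and GV was highest. The log2 change was 0.58 ± 0.15 with an adjusted p of 0.00856. In the annotation 69.8% of its exon bases are also exon bases of Nr2c2 on the other strand, and although the libraries were made to keep strand, whether the table was counted by strand is not given in the sources used here. Nr2c2 itself stood at 1.59 and 1.45 RPKM at 10–30 μm and 1.38 and 1.40 RPKM at 60–65 μm (log2 change −0.12 ± 0.11, adjusted p 0.356). None of the 4 calls held in every set of libraries. Without the 60–65 μm library A the log2 changes of Mrps25, Mrpl12 and Mrps27 were 0.56, 0.35 and 0.24 and no longer passed, and without the 60–65 μm library B that of Mrpl45 was 0.31 and no longer passed.

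The remaining lower genes, outside the rule for named genes and listed after their values were seen, had log2 changes between −0.80 and −0.30. In the large subunit these were Mrpl2, Mrpl11, Mrpl15, Mrpl22, Mrpl24, Mrpl27, Mrpl28, Mrpl35, Mrpl41, Mrpl42, Mrpl49, Mrpl51, Mrpl53 and Mrpl55, and in the small subunit Mrps2, Mrps5, Mrps11, Mrps15 and Mrps16. At one end, Mrpl42, a protein found only in mitochondria, stood at 13.3 and 10.4 RPKM at 10–30 μm and 6.77 and 6.61 RPKM at 60–65 μm, and at the other Mrpl2, with a bacterial counterpart, at 16.7 and 15.3 RPKM and then 13.4 and 12.6 RPKM. Neither overlapped between these classes. Of the exon bases of Mrpl53 88.0% are shared with other annotated genes, and of those of Mrpl24 26.3%, so their values are uncertain. Mrps36, the dehydrogenase protein, was lower as well, with 11.8 and 10.9 RPKM at 10–30 μm and 8.34 and 8.27 RPKM at 60–65 μm.

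Genes named for their level or role were mixed. Mrps22 had a log2 change of 0.14 ± 0.14 with a 95% interval of −0.17 to 0.45, Mrpl18 of −0.07 ± 0.15 and Mrpl34 of 0.04 ± 0.09, with adjusted p values of 0.389, 0.692 and 0.722. Mrpl44, which has a fold like that of RNase III enzymes, stood at 7.22 and 6.22 RPKM at 10–30 μm and 5.92 and 5.43 RPKM at 60–65 μm (log2 change −0.24 ± 0.13, adjusted p 0.139), and among the alternatives run it passed the test without the 10–30 μm library B (−0.39) and with the library letters as a block. Mrps34 went from 3.18 and 2.82 RPKM to 2.29 and 2.31 RPKM (−0.36 ± 0.11, adjusted p 0.0179), but 63.4% of its exon bases lie opposite those of Mapk8ip3 and 37.0% are shared with Nme3 on the same strand, so its value is uncertain. The change of Mrps34 also did not pass with only the 10–30 and 60–65 μm classes in the fit. Among the least abundant genes, Mrpl19 fell by 0.78 ± 0.12, Mrpl33 by 0.56 ± 0.13 and Mrpl50 by 0.39 ± 0.12 on the log2 scale (adjusted p 0.000776, 0.00611 and 0.0229), while Mrpl13 had −0.35 ± 0.18 (adjusted p 0.118) and likewise passed without the 10–30 μm library B (−0.60) or with that block. In the annotation 36.0% of the exon bases of Mrpl19 lie opposite those of Gcfc2, so its value is uncertain. The pseudocount of 0.1 RPKM makes such changes smaller than the ratio of the levels. The calls of Mrps34 and Mrpl50 were each lost without the 10–30 μm library A (log2 changes −0.23 and −0.27), without the 60–65 μm library A (−0.35 and −0.38) and without the 60–65 μm library B (−0.38 and −0.40).

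Mrps18a, Mrps18b and Mrps18c are paralogues related to a single protein of the bacterial small subunit. Mrps18a sits in the large subunit and the other two in the small subunit. In the split by origin above, Mrps18c was counted as the bacterial counterpart and Mrps18a and Mrps18b as found only in mitochondria. Mrps18b was the most abundant at 60–65 μm, with 5.57 and 5.26 RPKM, against 3.39 and 4.11 RPKM for Mrps18c and 2.18 and 2.01 RPKM for Mrps18a. At 10–30 μm Mrps18c stood at 6.62 and 5.08 RPKM on either side of Mrps18b at 5.94 and 5.99 RPKM, so the order of these genes was not settled in the smallest oocytes. Mrps18c fell by 0.62 ± 0.18 on the log2 scale (adjusted p 0.0165), a call lost without the 10–30 μm library A (−0.39) or the 60–65 μm library A (−0.48), and Mrps18a by 0.40 ± 0.09 (adjusted p 0.00564), while Mrps18b changed by −0.14 ± 0.10 (adjusted p 0.253). The differences between these 3 changes were not tested. In the annotation 23.2% of the exon bases of Mrps18c are shared with Gm43511 on the same strand, so its value is uncertain. Of those of Mrps18b 30.5% lie opposite Gm16279, which had no more than 0.0547 RPKM in any column.

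Early and late steps of growth were compared within the same fit, and neighbouring steps share the class between them. From 10–30 to 40–45 μm 3 of the 75 genes were lower and none was higher, while over all genes tested 9.76% were lower and 13.2% higher. The 3 were Mrpl23 (log2 change −0.63 ± 0.12, adjusted p 0.00985), Mrpl52 (−0.47 ± 0.12, adjusted p 0.0236) and Mrpl30 (−0.41 ± 0.12, adjusted p 0.0376). The median over the genes was −0.18 and 65 of 75 had a negative change, beside 5313 negative changes over the 10518 genes tested. At an unadjusted p under 0.05, 13 of the 75 were lower and none higher, beside 1833 lower and 2089 higher of all genes tested, so their share of lower genes was close to that background. The count of 3 was not stable. It was 1 without the 10–30 μm library A, 24 without the 10–30 μm library B, 0 without the 40–45 μm library A and 1 without the 40–45 μm library B, while the lower genes in the whole table numbered 430, 1452, 290 and 631 in these cases. It was 10 with the library letters as a block, beside 1471 over all genes tested, and 13 when the values were left as deposited. Leaving them as deposited also turned the calls over all genes from 1388 higher and 1027 lower to 1088 higher and 1521 lower.

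From 40–45 to 50–55 μm 4 of the 75 genes were lower and none was higher, beside 3.45% lower and 5.27% higher over all genes tested. They were Mrpl54 (log2 change −0.58 ± 0.13, adjusted p 0.0332), Mrpl23 (−0.53 ± 0.12, adjusted p 0.0392), Mrps24 (−0.52 ± 0.13, adjusted p 0.0455) and Mrpl30 (−0.47 ± 0.12, adjusted p 0.0455). With the library letters as a block 8 were lower, beside 868 over all genes tested. The median was again −0.18, with 64 negative changes beside 5330 over all genes tested. At an unadjusted p under 0.05, 19 of the 75 were lower and none higher, beside 1531 lower and 1494 higher of the 10518. The count was 0 without any 1 of the 6 libraries above 30 μm, and 11 without either 10–30 μm library. The calls over all genes moved in the same way, with 0 lower and 0 higher without the 40–45 μm library B or the 50–55 μm library A, between 68 and 175 lower without the others of the 6, and 778 and 782 lower without 10–30 μm library A and B.

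From 50–55 to 60–65 μm limma called none of the 75 genes, and 0% of all genes tested in either direction. At an unadjusted p under 0.05, 2 were lower and 2 higher, and over all genes tested 684 were lower and 756 higher. The median change was −0.01, with 41 of 75 negative.

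GV oocytes gave 1 column, so their difference from 60–65 μm oocytes has no replicate check and no test. The median log2 difference over the 75 genes was −0.02, with 42 negative and a range from −0.49 to 0.24. It was beyond −0.25 in 10 genes and beyond 0.25 in none, while over all genes tested 16% were beyond −0.25 and 14.6% beyond 0.25. The largest negative differences were those of Mrps26, a small-subunit protein found only in mitochondria, with 2.31 and 2.36 RPKM at 60–65 μm and 1.58 RPKM in GV, of Mrps6, the counterpart of a bacterial protein, with 3.28 and 2.51 RPKM and then 2.01 RPKM, and of Mrpl54. The largest positive ones were those of Mrpl47, with 1.92 and 2.03 RPKM and then 2.29 RPKM, of Mrpl40, with 6.24 and 6.28 RPKM and then 7.199 RPKM, and of Mrps25. Over the growing classes Mrps26 and Mrpl40 had log2 changes of −0.09 ± 0.10 and 0.02 ± 0.11 (adjusted p 0.432 and 0.898), while Mrps6 fell by 0.65 ± 0.17 and Mrpl47 by 0.38 ± 0.12 (adjusted p 0.0106 and 0.0206), calls that rested on single libraries. Mrps6 no longer passed without the 10–30 μm library A (−0.43) or the 60–65 μm library B (−0.47), and Mrpl47 not without the 10–30 μm library A (−0.27), the 60–65 μm library A (−0.34) or the 60–65 μm library B (−0.43).

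The summed RPKM of all 76 genes was 573 and 503 at 10–30 μm, 462 and 458 at 40–45 μm, 423 and 403 at 50–55 μm, 420 and 423 at 60–65 μm and 399 in GV. The sum went down until 50–55 μm and was level after that. The large-subunit genes summed to 371 and 331 RPKM at 10–30 μm and 269 and 273 RPKM at 60–65 μm, and those of the small subunit to 190 and 162 RPKM and then 143 and 142 RPKM. In both subunits the 10–30 μm libraries lay above those of all other classes in RPKM as deposited, and library A of that class above B. This order did not hold for all libraries after the scaling used in the tests, which put the sum over the 76 genes at 582 and 479 RPKM at 10–30 μm and 486 and 462 RPKM at 40–45 μm, so that 10–30 μm library B lay under 40–45 μm library A.

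**Figure D3:**
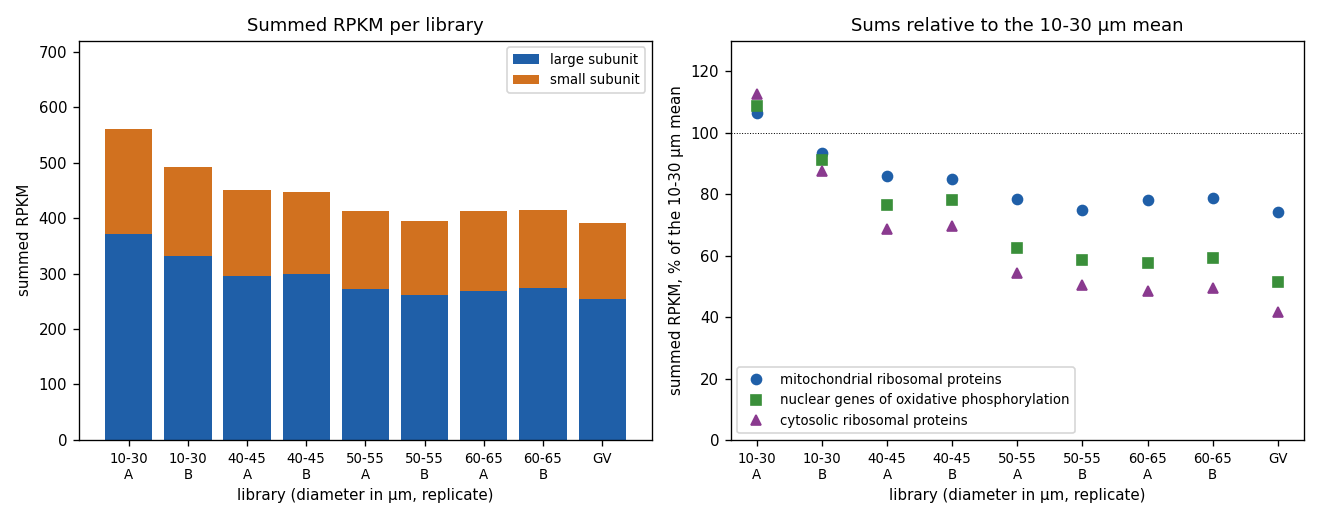
Left, summed RPKM of large-subunit (blue) and small-subunit (orange) genes stacked for each library, with Mrps36 left out of both. Right, summed RPKM of all 76 genes, of nuclear oxidative phosphorylation genes and of cytosolic ribosomal proteins in each library as a percent of their own mean over the 10–30 μm libraries, where the sums of the 76 genes, 573 and 503 RPKM at first and 420 and 423 RPKM at 60–65 μm, stay above the other two lists in every library past 10–30 μm.

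The ribosome of the cytosol and the respiratory chain that the mitochondrial ribosome serves also fell more often than they rose, with lower medians. Of 82 cytosolic ribosomal protein genes tested 77 were lower and none was higher at 60–65 μm, with a median log2 change of −1.07. Their summed level went from 3645 and 2837 RPKM at 10–30 μm to 1567 and 1603 RPKM at 60–65 μm and 1353 RPKM in GV. Of 79 nuclear genes of oxidative phosphorylation 69 were lower and 2 higher, with a median of −0.75, and their sum went from 1624 and 1363 RPKM to 860 and 884 RPKM and 768 RPKM in GV. These lists are set beside the mitochondrial ribosomal proteins as counts and medians, and the difference between lists was not tested. Genes for cytosolic ribosomal proteins have many processed pseudogenes, and reads that match both could be given to either.

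The change over growth also went with exon length, as given by the GENCODE annotation, in the table as a whole. Over all tested genes with a known exon length, the median log2 change was −0.45 in 429 genes of under 1000 exon bases, −0.21 in 1092 genes of 1000 to 2000 bases and 0.04 in 7893 longer genes. For the mitochondrial ribosomal proteins the same medians were −0.52 (9 genes), −0.33 (22 genes) and −0.36 (44 genes). In the longest class these genes had a median well under that of the other genes, while in the short classes the medians lay closer together. Spearman correlations of change with exon length were 0.14 both over the 75 genes and over the 9414 genes, and those of change with mean level 0.11 and 0.05. These are across genes, which share the same libraries.

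**Figure D4:**
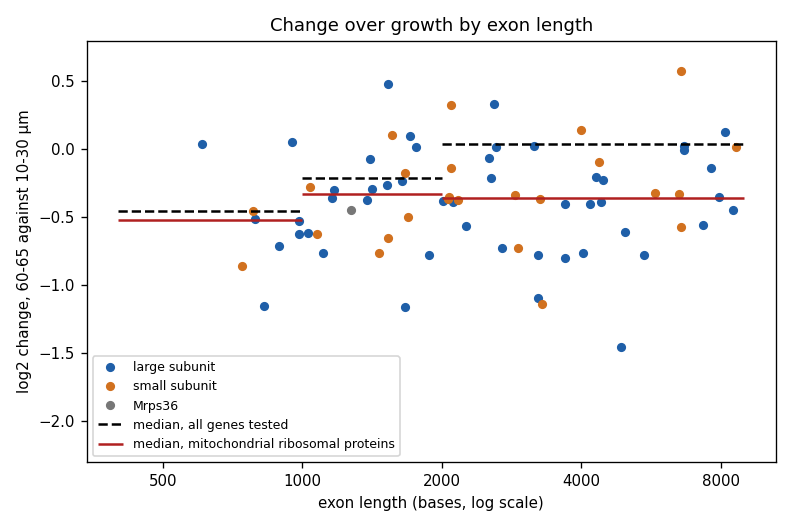
The log2 change from 10–30 to 60–65 μm against GENCODE exon length in bases (log axis) for the 75 genes tested (points), with the median of all tested genes (dashed lines) and of the mitochondrial ribosomal proteins (red lines) in 3 length classes. Above 2000 bases the median of all genes is 0.04 and that of the 44 mitochondrial ribosomal protein genes −0.36.

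Of 6 ribosomal proteins of mitochondria that carry other names, 3 were lower and 1 was higher, with a median log2 change of −0.32, beside 31.8% lower and 31.5% higher over all genes tested. Gadd45gip1, a large-subunit protein, rose from 16.1 and 15.8 RPKM at 10–30 μm to 26.1 and 25.7 RPKM at 60–65 μm (log2 change 0.70 ± 0.12, adjusted p 0.000995). Chchd1 and Aurkaip1, both of the small subunit, had changes of −0.78 and −0.51 (adjusted p 0.00173 and 0.00575), and Ict1, which releases peptides from stalled ribosomes, −0.38 (adjusted p 0.0195). Dap3 and Ptcd3, also of the small subunit, had 0.03 and −0.26 (adjusted p 0.827 and 0.0951).

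Of 14 mitochondrial translation factors 6 were lower and none was higher, with a median of −0.32, beside the same 31.8% and 31.5% of all genes tested. Mtif2, the initiation factor that places the first transfer RNA, fell from 3.35 and 3.17 RPKM at 10–30 μm to 1.04 and 1.14 RPKM at 60–65 μm, a log2 change of −1.50 with an adjusted p of 1.83e-05. The others were Mtrf1l, a release factor (−0.81), Lrpprc, which keeps mitochondrial messenger RNAs stable (−0.51), Mrrf, the recycling factor (−0.49), Tufm, the elongation factor that delivers transfer RNAs (−0.41), and Gfm2, which acts with Mrrf (−0.37).

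Of 19 tested factors that assemble the mitochondrial ribosome 4 were higher and 6 lower, with a median of −0.03, beside the 31.5% higher and 31.8% lower of all genes tested. The share of lower genes was that of the background. Nsun4, an RNA methyltransferase of the large subunit's assembly, rose by 1.51 on the log2 scale (adjusted p 5.51e-05), and Rpusd4, a pseudouridine synthase, also rose (log2 change 1.02, adjusted p 4.64e-05). Ddx28, a helicase, and Noa1, a GTPase, rose by 0.48 and 0.39 (adjusted p 0.00489 and 0.0425). The lower ones were Fastkd2 and Rnmtl1 (both −0.61), Mrm1, Mettl17, Rbfa and Eral1 (−0.29).

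Of 7 genes of mitochondrial transcription and DNA maintenance Polrmt, Polg and Peo1 (RNA polymerase, DNA polymerase and helicase) were higher and Ssbp1 and Elac2 lower, beside 31.5% higher and 31.8% lower of all genes tested. Polrmt and Polg, with log2 changes of 0.33 and 0.26, passed narrowly (adjusted p 0.047 and 0.048). Tfam, which packs mitochondrial DNA, had −0.18 (adjusted p 0.169). Of 10 nuclear regulators of mitochondrial genes 6 were tested, with 3 higher and 1 lower, beside the same shares of all genes tested. Nrf1 rose by 0.93 (adjusted p 9.48e-05), Ppargc1b by 1.72 (adjusted p 0.000608) and Tfe3 by 1.14 (adjusted p 0.00424) on the log2 scale. Ppargc1b started from 0.167 and 0.358 RPKM, near the pseudocount. Gabpa fell by 0.81 (adjusted p 0.000484), and Yy1 had −0.19 (adjusted p 0.379). Esrra, too low to test, went from 0.448 and 0.448 RPKM at 10–30 μm to 0.0899 and 0.1 RPKM at 60–65 μm. Ppargc1a, Pprc1 and Myc, also too low, did not fall in this way. Promoters with the NRF1 core made up 26.5% of the 34 lower genes with a promoter entry and 32.1% of the 28 that did not pass the test, those with the ETS motif 29.4% and 42.9%, and those with the YY1 motif 23.5% and 14.3%. The same shares were 44.1% and 64.3% for SP1, 44.1% and 35.7% for CCAAT, and 2.94% and 10.7% for TATAAA. These differences were not tested. With 4 promoters of higher genes in all, no share is given for them. In the stretches printed above Mrpl23, which fell, and Mrpl45, which rose, both hold the NRF1 core, and the promoter of Mrpl12 held none of the 6 motifs.

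The starts of these genes were almost free of DNA methylation. In RRBS, over CpG positions with at least 5 reads within 1 kb of the start given by the table, between 59 and 68 of the 76 genes could be measured in a library. Their median methylation was 0.586% and 0.292% at 40–45 μm, 0.479% and 0.172% in the 50–55 μm class, and 0.470% and 0.358% in that of 60–65 μm. For tested genes as a whole the medians were 0.595% and 0.389%, 0.607% and 0.360%, and 0.578% and 0.530%. The medians of the ribosomal protein genes thus lay under those of all tested genes in each library, by less than the gap between libraries A and B at 40–45 and 50–55 μm. The highest value of any of them in any library was 4.41%. With 2 libraries a class, a permutation test could not reach 0.05 and none was run.

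In PBAT 75 of the 76 starts were measured, with a median of 3.87% beside 3.51% in 9771 tested genes, and 3 of them reached 10%, beside 7.65% of tested genes. They were Mrps24, Mrpl55, a large-subunit protein found only in mitochondria, and Mrps31. Mrps31 had 10.9% (11.4% of pooled calls, 95% Wilson interval 7.11–17.6%) and Mrpl55 14.4% (12.9%, interval 10.0–16.5%). RRBS at the same starts and size gave 0.610% and 0.575% for Mrps31 over 25 and 21 positions, and 3.79% and 3.33% for Mrpl55 over 9 and 6 positions. Such intervals cover counting error only. Mrps24 had 77.6% over 37 positions (76.0% of pooled calls, interval 71.9–79.7%). The start of Mrps24 in the table lies 7979 bases upstream of its RefSeq start, which borders the stretch printed above, and around the RefSeq start PBAT methylation was 0.506% over 67 positions and RRBS methylation between 0.128% and 0.752%. The high value was therefore that of an upstream annotated start and not of the promoter shown.

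Gene bodies were measured in PBAT from 1 kb past the start to the end. Of the 59 genes of at least 4 kb, 53 had at least 10 positions, and their median methylation was 60.5% (quartiles 45.6 and 65.0%) beside 48.4% in 8893 tested genes. Most bodies were thus methylated while the starts were not. The highest were Mrpl16, a large-subunit protein with a bacterial counterpart, with 76.6% (pooled 79.8%, interval 72.1–85.9%), Mrpl20 with 74.6% (pooled 73.2%, interval 62.0–82.2%) and Mrpl46, found only in mitochondria, with 73.1% (pooled 74.2%, interval 66.2–80.9%). The lowest were Mrps24 with 11.2% (pooled 10.0%, interval 8.32–12.0%), Mrps7, a counterpart of a bacterial small-subunit protein, with 11.4% (pooled 10.8%, interval 7.78–14.8%) and Mrpl27, a bacterial-type protein of the large subunit, with 22.4% (pooled 25%, interval 16.8–35.5%). The body of Mrps24 as measured includes its RefSeq start.

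Body methylation and RNA were only weakly related among these genes. Over the 52 with both values, Spearman's rho was 0.17 with the log2 change over growth and −0.11 with mean RPKM, given as a description across genes of 1 PBAT library. Mrps7, with one of the lowest bodies, stood at 15.2 and 11.9 RPKM at 10–30 μm and 10.4 and 10.6 RPKM at 60–65 μm, while Mrpl16, with the highest, stood at 6.83 and 6.46 RPKM and then 6.84 and 6.65 RPKM. Mrpl20, which was among the strongest to fall, had one of the highest bodies.

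**Figure D5:**
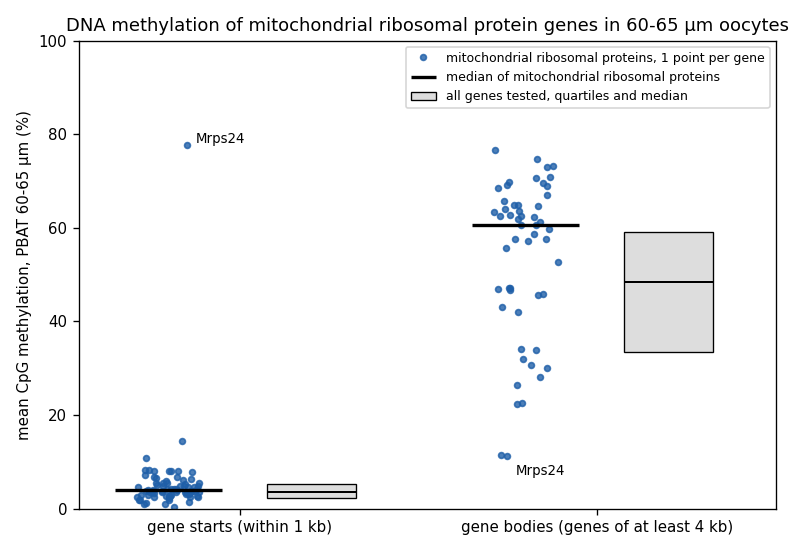
Mean CpG methylation in percent in the PBAT library at gene starts (left) and over gene bodies (right), with 1 point for each mitochondrial ribosomal protein gene, a bar at their median and a box for the quartiles and median of all tested genes. Starts lie near 0 apart from Mrps24 at 77.6%, and bodies have a median of 60.5% beside 48.4% in tested genes.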

How the data were processed

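The RNA table deposited by the authors holds RPKM per gene. Reads were trimmed with Trim Galore and aligned with TopHat2 2.0.9 to GRCm38 with 1 reported place per read. The libraries were strand-specific. The methods name Cufflinks for quantification and SeqMonk for analysis of RNA-seq, but which of them made the table, and its strand setting, are not given in the sources used here. The methylation files deposited by the authors (Bismark) hold the percent methylated and the counts of methylated and unmethylated calls per cytosine, from 30000113 to 57319823 calls per RRBS library and 99039028 in PBAT. Percentages were recomputed from these counts and averaged over positions.

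RPKM was scaled by a trimmed mean (30% of ratios, 5% of levels, factors 0.950 to 1.05). Genes with at least 0.5 RPKM in 2 of 8 libraries were tested on log2(RPKM + 0.1), on which scale all log2 changes are given, with limma 3.58.1 (R 4.3.3), trended variance, 1 mean per class and Benjamini-Hochberg adjustment. Folds are those of this scale. The script was tested on simulated data. Python 3.11.15, pandas 2.3.3 and numpy 2.4.6 did the rest, and matplotlib 3.10.9 the plots. The replicates of each class were compared before averaging.

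The genes and lists were chosen with earlier results of these data known. Genes named are the 6 largest called rises and falls of each contrast, the 5 highest and 5 lowest levels, the 3 largest GV differences each way, the Mrps18 paralogues, 6 set by known role, those failing the filter, the 3 highest and lowest bodies, and starts above 10% methylation. Other scalings, filters, pseudocounts, coverage minimums, windows, a replicate block and each library left out were tried. No column was left unmapped.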

Additional observations from a re-analysis of the deposited data

How the results depend on the processing

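No change that passed the test reversed. The median change from 50–55 to 60–65 μm, −0.0131, crossed 0 with RPKM as deposited (0.0144) and without the 50–55 μm library A (0.0246). Between 10–30 and 40–45 μm the 3 lower genes became 13 with RPKM as deposited, 1 with only these 2 classes in the fit, and 0 to 24 with 1 library left out, and the median change then ran from −0.299 to −0.0358. Between 40–45 and 50–55 μm the 4 lower genes became 0 without a filter on low values and 0 to 11 with 1 library left out. Over the whole of growth the 38 lower genes became 23 to 48 and the 4 higher ones 1 to 4 with 1 library left out, with medians of −0.507 to −0.238. In these the fits rest on the other libraries for the spread of the lone one. PBAT starts had a median of 2.67% at 10 reads or more. PBAT bodies had medians of 56.4% at 3 reads or more, 58.6% at 10 reads or more and 58.7% from 2 kb past the start. Taking gene starts from RefSeq was added after the data were seen. Of the other summary values 208 stayed within their limits.

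With library letters A and B as a replicate block, 10 genes were lower in the first step, 8 in the second and 48 over the whole of growth, beside 1471, 868 and 3658 of all 10518 genes tested. Same-lettered libraries deviated together in some pairs of classes and not in others (correlations over all genes of 0.60, 0.59, 0.67, −0.23, −0.03 and 0.11, and over the mitochondrial ribosomal protein genes of 0.64, 0.44, 0.60, −0.01, 0.12 and 0.50), so the letters were not taken as pairs. Each growing class has 2 libraries and PBAT has 1, and whether the single GV column holds 1 library or several is not given in the sources used here, which limits all precision.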
